A study of Mus musculus with 12 samples.

Results

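The FOXO transcription factors were taken as the 4 genes Foxo1, Foxo3, Foxo4 and Foxo6, matched by symbol in a table of gene counts that holds 24421 genes. The counts came from RNA sequencing of mouse embryonic fibroblasts (MEFs) with or without the transcription factors TFEB and TFE3, treated with etoposide, a topoisomerase II poison that breaks DNA. The study compared the response to DNA damage in the presence and in the absence of these factors. Of the 12 libraries, 3 came from untreated Null MEFs, read here as the wild-type control line of the study's methods, and 3 from Null MEFs after 100 µM etoposide for 8 hr. Another 3 came from untreated TFEB/TFE3 double knockout (DKO) MEFs, made with CRISPR, and 3 from DKO MEFs after the same etoposide treatment. The labels call the control cells untreated, whereas the study's methods name DMSO as the control treatment. RNA was isolated with either of a pair of kits, the sources used here do not say which library used which, and the part of the kit in the differences between groups was not tested. Each genotype was a single line, the MEFs were immortalized with SV40, which the study notes can affect p53 stability, and clone and genotype cannot be told apart. Libraries held between 45577023 and 104120871 counts on genes. Nothing states that the replicates came from separate cultures, so p-values measure only the spread between these libraries, which may be technical.

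FOXO proteins are forkhead transcription factors that are kept out of the nucleus when insulin or growth factors activate PI3K and AKT, because phosphorylation by AKT or SGK lets 14-3-3 proteins hold them in the cytoplasm. When that input falls, or when some stress kinases modify them, they enter the nucleus and activate target genes. These include genes of cell cycle arrest, cell death, antioxidant defense, autophagy and insulin feedback. Acetylation and ubiquitination also modify FOXO proteins. Much of this control acts on the protein, and RNA levels do not report it.

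The targeted genes were read first. Tfeb measured 38.9, 39.2 and 42.1 CPM (counts scaled to a common library size, with sizes adjusted by the trimmed mean of M-values) in untreated Null libraries and 4.60, 6.09 and 4.68 CPM in untreated DKO libraries. After etoposide it measured 11.4, 10.2 and 10.4 CPM in Null and 1.92, 1.61 and 2.20 CPM in DKO. All 6 DKO libraries lay below all 6 Null libraries. Tfe3 measured 115, 109.9 and 114 CPM in untreated Null, 94.1, 93.0 and 91.0 CPM in untreated DKO, 68.5, 69.6 and 68.1 CPM in Null after etoposide and 70.7, 71.2 and 63.4 CPM in DKO after etoposide. Counts over the whole gene do not show whether a small CRISPR edit disrupts the protein, so Tfe3 counts do not check the label. Both genes fell with etoposide in both genotypes. On the log2 scale Tfeb fell by 1.91 in Null and by 1.42 in DKO, and Tfe3 fell by 0.72 and 0.44.

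Of 10 fibroblast markers, 9 averaged at least 1 CPM, and the summed level of the list was 7121 ± 59.5 CPM (SD, n = 3) in untreated Null, 3990.4 ± 53.1 in Null after etoposide, 11742 ± 322 in untreated DKO and 5195 ± 167 in DKO after etoposide. By group mean, Vim was the most abundant except in DKO after etoposide, where Fn1 led with 1531 CPM and Vim averaged 801 CPM. Lum stayed below 1 CPM in all 12 libraries, and Thy1 averaged 4.21 CPM in untreated Null against 0.0365 CPM in untreated DKO. Among markers of other cell types, 1 of 5 haematopoietic, 1 of 5 epithelial, 1 of 4 muscle, 1 of 4 neural and 0 of 4 endothelial markers averaged at least 1 CPM, and Ptprc, Adgre1, Cd3e and Myod1 did not exceed 0.540 CPM in any library. The muscle marker Des averaged 2.11 CPM in untreated Null and 36.3 CPM in Null after etoposide, and the haematopoietic marker Cd68 averaged 1.44 and 11.96 CPM. In untreated and treated DKO, Des averaged 0.386 and 2.44 CPM, and Cd68 1.56 and 3.08 CPM. Summed neural markers, led by Tubb3, averaged 54.99 and 15.0 CPM in untreated Null and DKO, and 63.8 and 30.0 CPM after etoposide. Summed epithelial markers ranged from 1.99 to 5.92 CPM and endothelial ones from 0.0543 to 2.89 CPM. By group mean, the epithelial ones were led by Krt8 in the untreated groups and by Cdh1 in the treated groups. The endothelial ones were led by Tek in untreated DKO and treated Null, and by Pecam1 in untreated Null and treated DKO. Genes took from 56.0% to 58.9% of the total of each library in untreated Null and from 53.4% to 54.97% in Null after etoposide, and from 60.8% to 63.1% and from 57.6% to 59.1% in DKO. This share was thus lower after etoposide in both genotypes and higher in DKO in both treatment states, with no overlap in these comparisons. Counts on no annotated feature made up 22.5% to 24.2% and 25.1% to 27.3% in untreated and treated Null, and 20.2% to 21.1% and 21.2% to 22.3% in DKO. The part of these differences in the FOXO values was not tested.

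In GENCODE annotation of GRCm38, Foxo1 lies at chr3:52268336-52353221 on the + strand, with 8665 bp of merged exons. Foxo3 lies at chr10:42181841-42276755 on the − strand, with 7571 bp, Foxo4 at chrX:101254528-101260873 on the + strand, with 3485 bp, and Foxo6 at chr4:120267079-120287349 on the − strand, with 2615 bp. All 4 are protein-coding genes on different chromosomes. Exons of Foxo1 overlap those of Gm20402, annotated on the opposite strand, and the sources used here do not state whether counting used strand, so reads from these genes may not be told apart. Exons of some other genes named with values, from the FOXO lists, the forkhead family and the nearest patterns, also overlap those of another annotated gene. These genes are Irs1, Irs2, Btrc, Ep300, Txnip, Bnip3, Gabarapl1, Ccnd1, Ccnd2, Foxf1, Foxj2, Foxp1, Rhobtb1, 2310067B10Rik and Neurl1a. The overlap in Rhobtb1 is a short stretch, and counts of all these genes are less certain. The same holds for Cdkn1a and Gadd45a, and the cell type markers were not checked for overlaps.

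Foxo1, the family member best known for insulin and growth factor signaling, had the widest range in absolute CPM. In untreated Null libraries it measured 40.01, 39.98 and 40.38 CPM, and in untreated DKO libraries 162, 168 and 163 CPM. After etoposide it measured 34.1, 32.0 and 32.4 CPM in Null and 31.2, 34.5 and 30.8 CPM in DKO. The untreated DKO libraries stood far above the other 9, the untreated Null libraries came next, and the Null and DKO libraries treated with etoposide overlapped. In bulk RNA, fewer cells expressing a gene and less RNA per cell cannot be told apart. Without etoposide, Foxo1 was 4.09-fold higher in DKO than in Null (log2 fold change 2.03, SE 0.04, Benjamini-Hochberg adjusted p = 2.65e-16 by the quasi-likelihood test of edgeR), the 581st highest log2 fold change of 15220 genes tested. With etoposide, Foxo1 fell 5.11-fold in DKO (log2 fold change −2.35, SE 0.04, adjusted p = 4.69e-17 in the same edgeR fit), the 165th lowest log2 fold change. In Null it fell by 0.29 on the log2 scale (SE 0.04, adjusted p = 1.17e-05, edgeR), and with libraries scaled by size alone it fell by 0.12. The difference between these responses was −2.06 (SE 0.06, adjusted p = 1.30e-13 for the interaction in edgeR). After etoposide the difference between DKO and Null was −0.03 (SE 0.04, adjusted p = 0.543, edgeR), and without DKO etoposide replicate 2 it was −0.10 (adjusted p = 0.0371, over alternatives 0.0371 to 0.880, edgeR and the other tools).

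**Figure D1:**
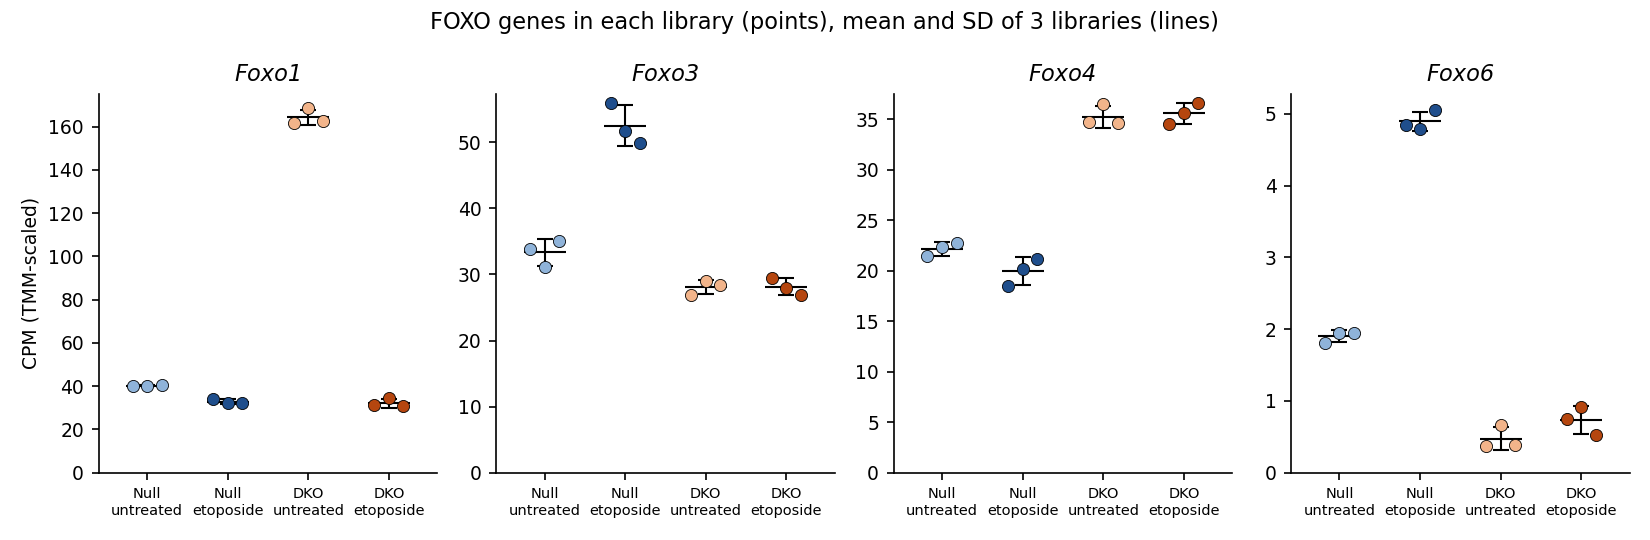
CPM of Foxo1, Foxo3, Foxo4 and Foxo6 (y axes, linear from 0 and scaled separately) in each of the 12 libraries (points), with the mean and SD of the 3 libraries of each group (lines). Foxo1 is highest in untreated DKO (164 CPM), Foxo3 and Foxo6 in Null after etoposide (52.5 and 4.89 CPM), and Foxo4 in both DKO groups (35.3 and 35.6 CPM).

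Foxo3, which is broadly expressed and known for roles in stress resistance and apoptosis, measured 33.8, 31.2 and 35.1 CPM in untreated Null and 55.9, 51.8 and 49.8 CPM in Null after etoposide. In DKO it measured 26.9, 29.0 and 28.5 CPM without and 29.5, 27.9 and 27.0 CPM with etoposide. The treated Null libraries were the highest 3, the untreated Null libraries the next 3, and the treated and untreated DKO libraries overlapped at the bottom. Foxo3 rose 1.57-fold in Null (log2 fold change 0.66, SE 0.05, Benjamini-Hochberg adjusted p = 9.23e-09, quasi-likelihood test of edgeR). In DKO its log2 fold change was −0.00 (SE 0.06, adjusted p = 0.947 in edgeR), with a 95% interval from −0.11 to 0.11; with libraries scaled by size alone it was 0.27 and passed the test. The test of the difference between the responses gave −0.66 (SE 0.08, adjusted p = 2.09e-06, edgeR). Foxo3 was lower in DKO than in Null by 0.24 on the log2 scale without etoposide (SE 0.06, adjusted p = 0.00100, edgeR) and by 0.90 with it (SE 0.06, adjusted p = 2.07e-10, edgeR). Foxo3 is among the genes that the study chose to follow in this DNA damage response, so its direction here is not independent evidence.

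Foxo4, an X-linked member, measured 21.4, 22.3 and 22.7 CPM in untreated Null and 18.5, 20.2 and 21.2 CPM in Null after etoposide. The DKO libraries gave 34.7, 36.5 and 34.6 CPM untreated and 34.5, 35.6 and 36.6 CPM treated. Every DKO library lay above every Null library, and the DKO groups overlapped. Foxo4 was 1.59-fold higher in DKO without etoposide (log2 fold change 0.67, SE 0.05, Benjamini-Hochberg adjusted p = 5.95e-09, quasi-likelihood test of edgeR) and 1.78-fold higher with it (0.84, SE 0.05, adjusted p = 3.01e-10, edgeR). Etoposide moved it by −0.15 in Null (SE 0.05, adjusted p = 0.0174, edgeR), a fall that turned to a log2 fold change of 0.02 when libraries were scaled by size alone, where the call was lost. The call was also lost without Null etoposide replicate 1 (−0.10, adjusted p = 0.0838, over alternatives 0.00391 to 0.765, edgeR and the other tools). In DKO the log2 fold change was 0.01 (SE 0.05, adjusted p = 0.817, edgeR), slightly below 0 under several alternatives, and 0.29 and past the test with scaling by size alone. The difference between the responses, 0.16 (SE 0.07, adjusted p = 0.0740, edgeR), did not pass the test, but it did with scaling by size alone, at 0.27, and without Null etoposide replicate 3 (0.21, adjusted p = 0.0258, over alternatives 0.00417 to 0.330, edgeR and the other tools).

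Foxo6, a member known mainly from brain, was the least abundant. It measured 1.81, 1.95 and 1.95 CPM in untreated Null, from 126 to 147 counts, and 4.84, 4.79 and 5.05 CPM in Null after etoposide, from 346 to 397 counts. In DKO it measured 0.376, 0.663 and 0.386 CPM untreated, from 23 to 61 counts, and 0.749, 0.915 and 0.526 CPM treated, from 37 to 67 counts. All DKO libraries lay below all Null libraries, the treated Null libraries were highest, and the DKO groups overlapped. Foxo6 rose 2.58-fold with etoposide in Null (log2 fold change 1.36, SE 0.19, Benjamini-Hochberg adjusted p = 6.51e-06, quasi-likelihood test of edgeR). In DKO its log2 fold change was 0.55 (SE 0.25, adjusted p = 0.0581, edgeR), and without DKO untreated replicate 2 or DKO etoposide replicate 3 it was 0.88 (adjusted p = 0.00844) or 0.77 (adjusted p = 0.0135), over alternatives 0.00675 to 0.305 in edgeR and the other tools. With scaling by size alone it was 0.83 and also passed, and leaving out DKO etoposide replicate 2 gave the lowest value, 0.32. The difference between the responses was −0.81 (SE 0.32, adjusted p = 0.0413, edgeR), and the call was lost without any 1 of the 6 Null libraries, without DKO etoposide replicate 3 (−0.60) and without DKO untreated replicate 2 (−0.47, adjusted p = 0.246, over alternatives 0.0132 to 0.246, edgeR and the other tools). Foxo6 was lower in DKO by 1.95 on the log2 scale without etoposide (SE 0.23, adjusted p = 1.05e-06, edgeR) and by 2.77 with it (SE 0.21, adjusted p = 4.28e-09, edgeR).

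Side by side, all 4 FOXO genes passed an adjusted p of 0.05 for etoposide in Null, where 78.4% of the 15220 genes tested did. Their groups did not overlap for all 4, as for 80.2% of genes tested. In DKO, only Foxo1 passed and only its groups did not overlap, against 75.3% of genes called and 76.1% not overlapping. Without etoposide all 4 differed between DKO and Null, where 67.4% of genes were called and 70.5% did not overlap. After etoposide 3 of 4 did, all but Foxo1, against 72% called and 74.7% not overlapping. The interaction was called for 3 of 4, all but Foxo4, against 54.6% of genes. With backgrounds this high, a count of called FOXO genes says little, and the sizes and directions above carry the description. These comparisons share libraries, so their values are not independent of each other. With scaling by library size alone, the median over all genes tested shifted by 0.17 on the log2 scale for etoposide in Null, 0.27 in DKO, −0.12 for untreated DKO against Null and 0.10 for the interaction.

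**Figure D2:**
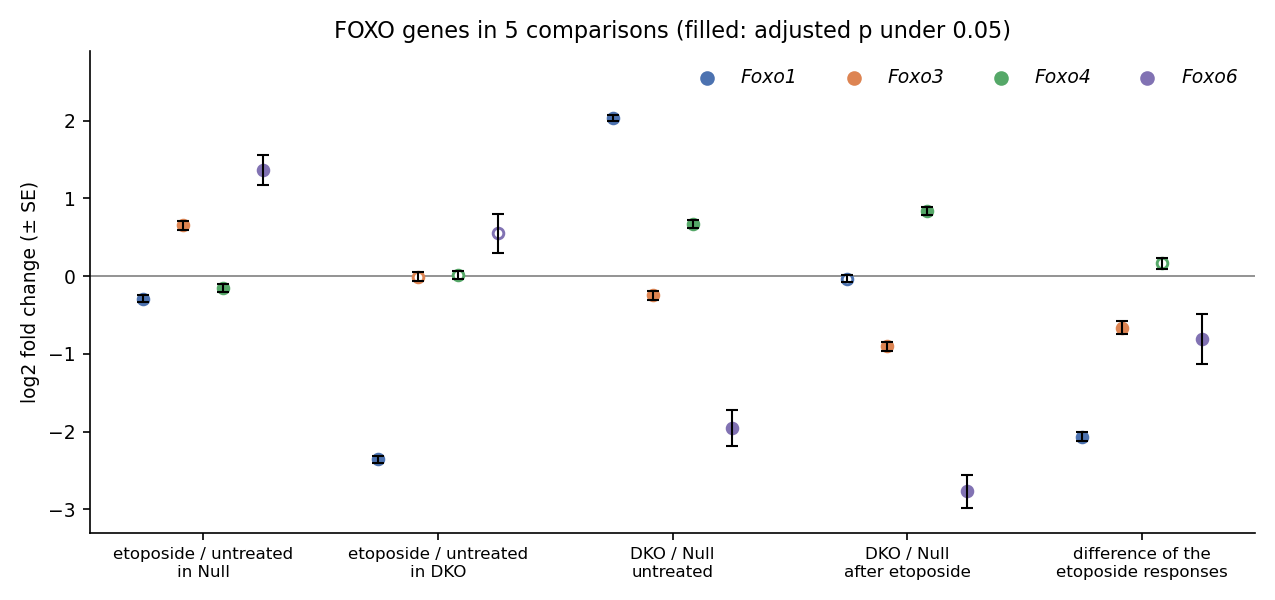
Log2 fold changes with SE (y axis) of the 4 FOXO genes in the 5 comparisons (x axis), the last being the etoposide response in DKO minus that in Null. Filled points passed an adjusted p of 0.05 in the quasi-likelihood test of edgeR, and open points did not. Foxo1 lies at 2.03 for DKO against Null untreated and at −0.03 after etoposide, while Foxo6 lies at −1.95 and −2.77; with scaling by library size alone, Foxo4 in Null turns to 0.02 and Foxo3 in DKO to 0.27.

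Levels were compared between FOXO genes as CPM per kilobase of merged exons. In untreated Null, Foxo4 had the highest per-length level, 6.36 ± 0.189 CPM per kb (SD, n = 3), followed by Foxo1 with 4.63 ± 0.0260, Foxo3 with 4.40 ± 0.263 and Foxo6 with 0.727 ± 0.0315. Foxo1 and Foxo3 were close there, with a ratio of 1.03, 1.12 and 1.01 in the 3 libraries. Ranks and ratios depend on the length used, and the longest transcript of Foxo3 has 6848 bp against 7571 bp of merged exons. In Null after etoposide Foxo3 led with a per-length level of 6.93 ± 0.412 CPM per kb, ahead of Foxo4 with 5.73 ± 0.388, Foxo1 with 3.79 ± 0.127 and Foxo6 with 1.87 ± 0.0509. In untreated DKO Foxo1 led with 19.0 ± 0.417 CPM per kb, ahead of Foxo4 with 10.1 ± 0.312, Foxo3 with 3.72 ± 0.145 and Foxo6 with 0.182 ± 0.0623. In DKO after etoposide Foxo4 led with 10.2 ± 0.301 CPM per kb, and Foxo1 and Foxo3, both at 3.71, overlapped. Foxo4 thus led in untreated Null and treated DKO, Foxo3 in treated Null and Foxo1 in untreated DKO.

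The summed per-length level of the 4 genes was 15.9, 15.9 and 16.6 CPM per kb in untreated Null, 18.5, 18.2 and 18.3 in Null after etoposide, 32.3, 33.998 and 32.6 in untreated DKO and 17.7, 18.2 and 17.8 in DKO after etoposide. Untreated DKO libraries stood apart at the top, and the treated groups overlapped. Foxo1 made up 28.7 ± 0.506% of the sum in untreated Null, 20.7 ± 0.525% in Null after etoposide, 57.5 ± 0.303% in untreated DKO and 20.7 ± 1.01% in DKO after etoposide. Foxo3 made up 27.3 ± 1.20%, 37.8 ± 2.03%, 11.3 ± 0.264% and 20.7 ± 1.12% in the same order. The ratio of the per-length levels of Foxo1 and Foxo3 was 1.05 ± 0.0598, 0.547 ± 0.0185, 5.10 ± 0.130 and 1.00 ± 0.0790 in that order. The ratio in treated Null was the lowest, with no overlap with the other groups, and that in untreated DKO the highest.

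**Figure D3:**
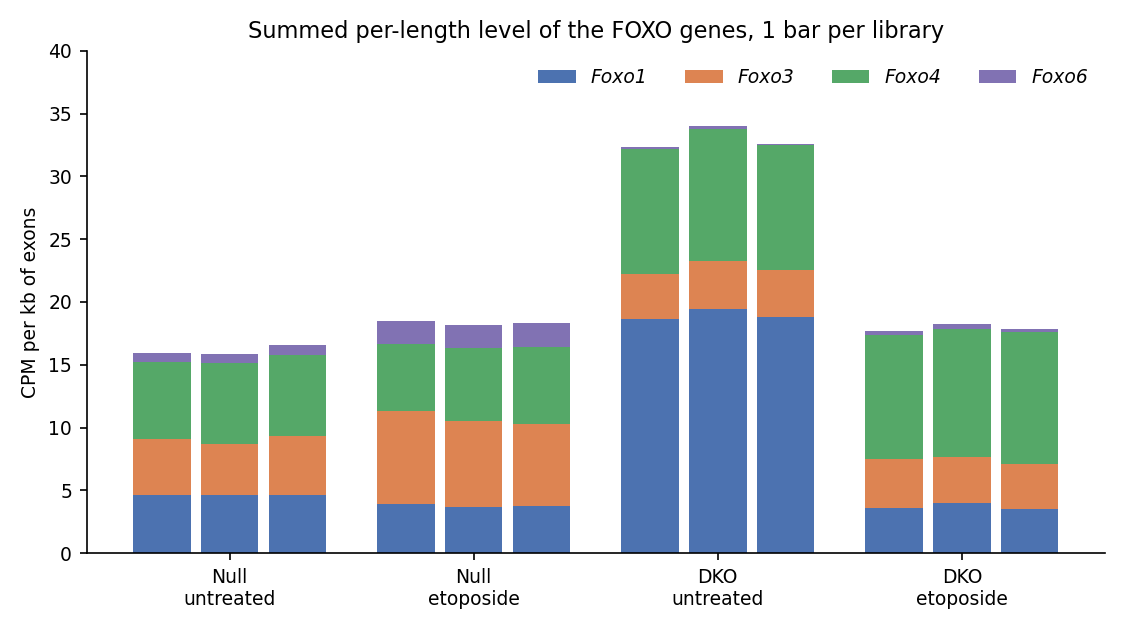
Summed level of the FOXO genes in CPM per kb of merged exons (y axis, from 0), 1 stacked bar for each of the 12 libraries, split by gene. Untreated DKO bars reach 32.3 to 33.998 CPM per kb with Foxo1 as the largest segment, and the other 9 bars lie between 15.9 and 18.5.

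RNA was measured for 24 genes of insulin receptor, PI3K, AKT and SGK signaling, all tested; it does not report the activity of these proteins. With etoposide in Null, 5 rose and 18 fell, with a median log2 fold change of −0.65, against 41.7% of all genes higher, 36.8% lower and a median of 0.07. In DKO 4 rose and 18 fell, with a median of −0.42, against 44% higher, 31.3% lower and a median of 0.14 over all genes. Scaled by library size alone, 8 rose and 13 fell in DKO, where 61.4% of all genes were then higher and 19.5% lower. The receptor gene Igf1r, upstream of FOXO phosphorylation, averaged 159.97 CPM in untreated Null and 30.0 CPM in treated Null, a fall of 2.41 on the log2 scale (SE 0.04, adjusted p = 2.67e-17, edgeR). Irs2, an adaptor that is itself a known FOXO target, averaged 24.7 and 76.7 CPM and rose by 1.64 (SE 0.08, adjusted p = 1.09e-11, edgeR). Phlpp1, a phosphatase that opposes AKT, fell by 2.03 in Null, and Pik3cb, a catalytic PI3K subunit, fell by 1.37. Sgk1, a kinase that phosphorylates FOXO3, averaged 578 CPM in untreated Null, 234 in treated Null, 1571 in untreated DKO and 310.3 in treated DKO. Like Foxo1, it was highest in untreated DKO, and its etoposide response differed between the genotypes by −1.03 (SE 0.05, adjusted p = 1.17e-11 for the interaction in edgeR). After etoposide, 13 of the 24 were higher in DKO and 8 lower, against 36.9% and 35.2% of all genes, and of 9 kinases that phosphorylate FOXO proteins and their activators 7 were higher and none was lower by edgeR, with a median of 0.41 against −0.00 over all genes. Of the other roles, the PI3K subunits went the other way: of 6, 2 were higher and 4 lower (median −0.40), of 5 phosphatases that oppose the pathway 2 were higher and 3 lower (median −0.15), and of 4 receptors and adaptors 2 were higher and 1 lower (median 0.36). Without etoposide, 5 of the 9 kinases and activators were higher in DKO and 2 lower (median 0.14), against 33.4% and 34.1% of all genes. With scaling by library size alone these counts were 4 and 3, against 26.3% and 42.5%.

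Genes whose products modify or hold FOXO proteins numbered 34, all tested. Etoposide raised 5 and lowered 25 in Null (median log2 fold change −0.30), or 8 and 18 with scaling by library size alone, against 50.3% and 28.6% of all genes under that scaling. It raised 7 and lowered 21 in DKO (median −0.22), where scaling by library size alone turned the balance to 15 raised and 12 lowered, against 61.4% of all genes higher and 19.5% lower under that scaling. With the adjusted library sizes, 41.7% of all genes rose and 36.8% fell in Null (median 0.07), and 44% rose and 31.3% fell in DKO (median 0.14). Of the 8 genes of 14-3-3 proteins and nuclear export, which keep phosphorylated FOXO in the cytoplasm, 7 fell and 1 rose in each genotype, against the 36.8% and 31.3% of all genes that fell in Null and in DKO. With scaling by library size alone, 4 of the 8 fell in Null and 3 in DKO, against 28.6% and 19.5% of all genes. In the other roles, etoposide lowered 5 of 6 deacetylase and acetyltransferase genes in Null and 2 in DKO, 3 and 2 of 5 ubiquitin ligase and deubiquitinase genes, and, in each genotype, 7 of 11 other kinase genes and 2 of 3 methyltransferase and O-GlcNAc transferase genes. When scaled by library size alone, higher calls outnumbered lower ones in DKO in each of these 4 roles, by 4 to 2, 3 to 1, 6 to 5 and 1 to 0. Mdm2, a ubiquitin ligase for p53 that also targets FOXO proteins and a gene the study followed, averaged 121 CPM in untreated Null and 1834 CPM after etoposide, and rose by 3.92 (SE 0.04, adjusted p = 6.87e-20, edgeR). The acetyltransferase gene Crebbp fell by 1.38, and after etoposide all 6 deacetylase and acetyltransferase genes that act on FOXO were higher in DKO than in Null, with a median of 0.58, against 36.9% of all genes higher, 35.2% lower and a median of −0.00. With DESeq2 size factors 5 of the 6 were higher, against 32.8% of all genes. Without etoposide, 3 of the 6 were higher in DKO and 1 lower (median 0.15), against 33.4% and 34.1% of all genes. With scaling by library size alone 1 was higher there and 1 lower, against 26.3% and 42.5%. After etoposide, 20 of all 34 genes were higher in DKO and 9 lower. By role, these counts were 5 and 2 for the 14-3-3 and export genes and 5 and 4 for the other kinases. The ubiquitin ligases and deubiquitinase had 2 and 2, and the methyltransferases and O-GlcNAc transferase 2 and 1. Over alternatives, from 14 to 20 of the 34 were higher. With DESeq2 size factors, 3 of the 14-3-3 and export genes were higher and 2 lower. The ubiquitin ligases and deubiquitinase then had 1 higher and 2 lower, and the methyltransferases and O-GlcNAc transferase 1 and 1. Trib2, a pseudokinase known to restrain FOXO3, averaged 7.48 CPM in untreated Null, 3.67 in treated Null, 37.9 in untreated DKO and 3.88 in treated DKO. As for Foxo1, untreated DKO was highest and both treated groups were lowest, and its interaction was −2.27 (SE 0.14, adjusted p = 1.16e-09, edgeR).

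Of 48 genes known to be activated by FOXO factors, 42 were tested; among the others, Fasl, G6pc, Pck1, Igfbp1 and Il7r had at most 8 counts in any library. Some of them, among these Cdkn1a, Bbc3, Pmaip1, Gadd45a and Sesn1, are also known p53 targets, and Cdkn1a, Bbc3 and Sesn1 were chosen by the study on this response, so their direction is not independent evidence. In Null, etoposide raised 25 and lowered 11 of these FOXO targets (median log2 fold change 0.54), against 41.7% of all genes higher, 36.8% lower and a median of 0.07. In DKO it raised 21 and lowered 15 (median 0.15), close to the 44% higher, 31.3% lower and median of 0.14 over all genes. With scaling by library size alone it raised 28 and lowered 9 in DKO, against 61.4% and 19.5% of all genes. By role, autophagy and protein breakdown targets rose in 9 of 10 cases in Null and 7 of 10 in DKO, cell cycle arrest targets in 5 of 8 in both, and cell death targets in 3 of 6 and 2 of 6. Targets of oxidative and metabolic stress rose in 4 of 8 cases in both, those of insulin feedback and metabolism in 3 of 7 and 2 of 7, and lymphocyte genes in 1 of 3 in both. With scaling by library size alone, where 61.4% of all genes rose in DKO, cell death targets there turned from 2 higher and 3 lower to 3 higher and 2 lower, and insulin feedback targets from 2 higher and 4 lower to 4 higher and 0 lower by edgeR. Under that scaling, targets of oxidative and metabolic stress rose in 7 of 8 cases in Null, where 50.3% of all genes rose. In DKO they then rose in 6 of 8. The interaction was called for 10 targets upward and 23 downward (median −0.29), against 29.9% and 24.7% of all genes and a median of 0.05. All 8 cell cycle arrest targets of FOXO had a lower response in DKO by this test, with a median of −0.40. Scaled by library size alone 6 of the 8 did, against 20.4% of all genes. Among the other roles, stress targets had 1 higher and 5 lower responses of 8 (median −0.49), cell death targets 2 and 3 of 6 (median −0.29), and lymphocyte genes 0 and 1 of 3 (median 0.03). Insulin feedback and metabolism went the other way, with 4 higher and 2 lower of 7 (median 0.44), and autophagy targets had 3 higher and 4 lower of 10 with a median of 0.08, and 4 higher and 3 lower with scaling by library size alone.

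The BH3-only gene Pmaip1, a FOXO and p53 target that promotes apoptosis, averaged 31.0 CPM in untreated Null, 281 in treated Null, 218 in untreated DKO and 219 in treated DKO. It rose by 3.18 in Null (SE 0.06, adjusted p = 1.02e-16, edgeR), its log2 fold change in DKO was 0.01 (adjusted p = 0.905, edgeR), and the interaction was −3.17. Txnip, an inhibitor of thioredoxin, rose by 3.17 in Null and by 1.47 in DKO. Ulk1, the autophagy-initiating kinase, averaged 23.8, 134, 36.0 and 67.4 CPM in untreated Null, treated Null, untreated DKO and treated DKO, and its interaction was −1.59. Gabarapl1, an autophagy gene of the ATG8 family, went the other way, with a larger rise in DKO and an interaction of 0.80. Without etoposide, where Foxo1 was about 4 times as high in DKO, 17 of the 42 FOXO targets were higher in DKO and 16 lower (median 0.03), against 33.4% and 34.1% of all genes and a median of −0.02. With scaling by library size alone 16 were higher and 17 lower, against 26.3% and 42.5% of all genes. After etoposide 9 were higher and 19 lower (median −0.09), against 36.9% and 35.2% of all genes and a median of −0.00. The lower ones were led by Pdk4, a kinase that limits glucose oxidation, at −2.24 (SE 0.10, adjusted p = 3.67e-12, edgeR), Cited2 at −1.24 and the pro-apoptotic gene Bcl2l11 at −1.10. Highest in DKO relative to Null among called targets averaging at least 10 CPM were Bnip3, a mitochondrial gene of cell death and mitophagy, at 1.05, the insulin receptor gene Insr at 0.72 and S1pr1 at 0.54.

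**Figure D4:**
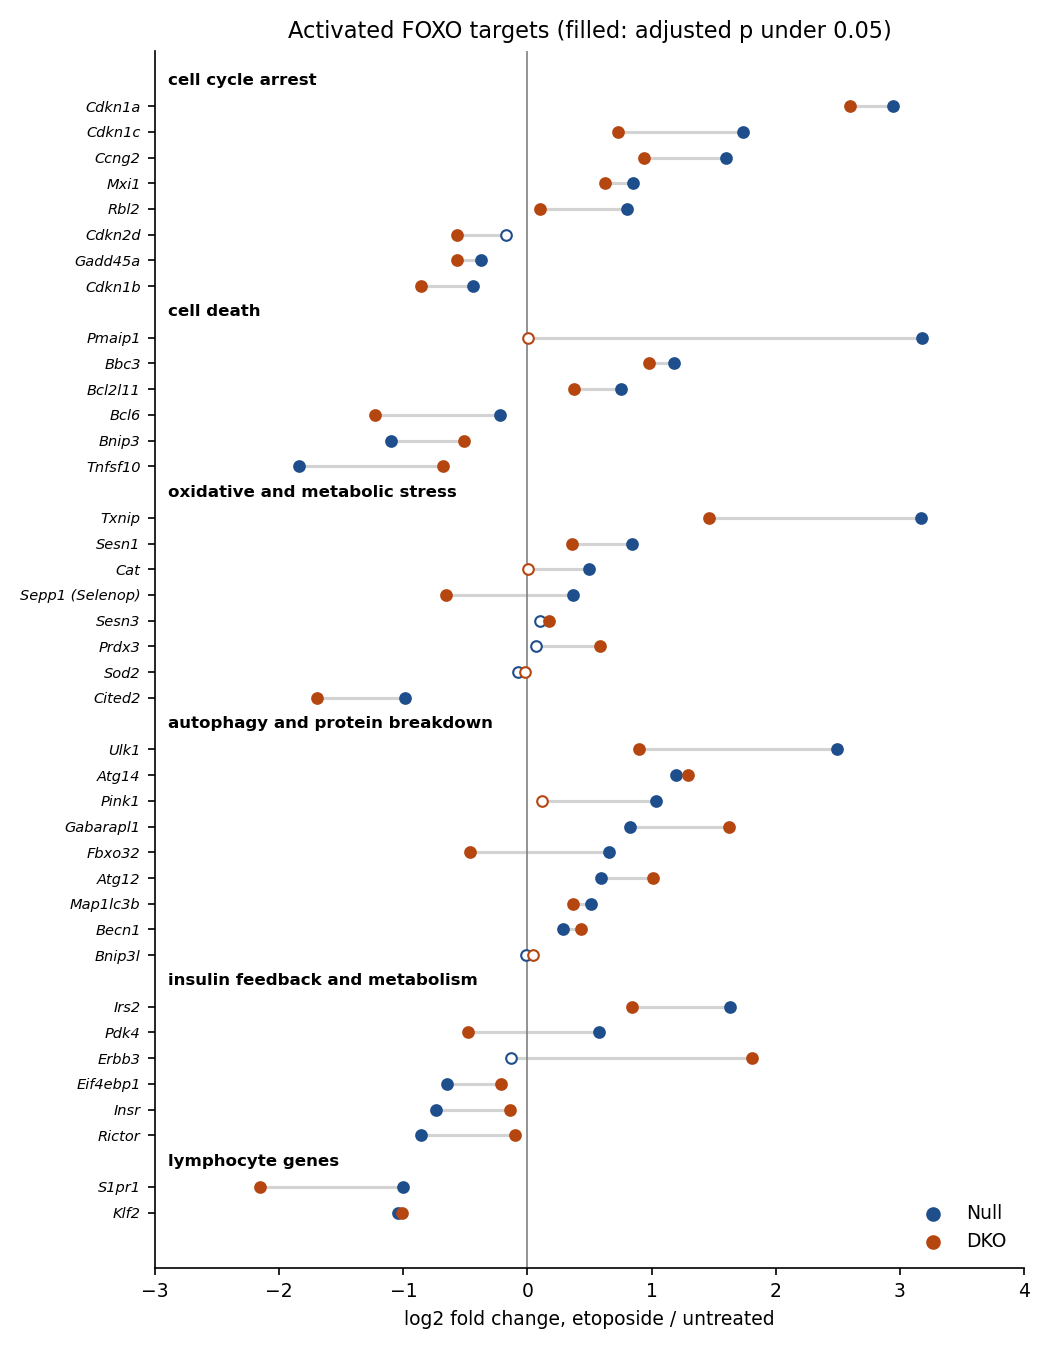
Log2 fold change with etoposide (x axis) of 39 of the 42 tested FOXO targets, those that averaged at least 1 CPM, in Null (blue) and DKO (orange), grouped by role. Filled points passed an adjusted p of 0.05 in the quasi-likelihood test of edgeR, and grey lines join the values of a gene. Pmaip1 lies at 3.18 in Null and 0.01 in DKO, and Gabarapl1 lies at 0.83 in Null and 1.62 in DKO.

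Genes that FOXO factors repress were represented by 3, the D-type cyclins Ccnd1 and Ccnd2 and Myc. Ccnd1 averaged 182 CPM in untreated Null, 317 in treated Null, 29.6 in untreated DKO and 49.7 in treated DKO, and after etoposide it was lower in DKO by 2.67 (SE 0.06, adjusted p = 6.28e-16, edgeR). Ccnd2 was higher in DKO after etoposide by 0.92 and Myc lower by 0.49. In Null, Ccnd1 rose by 0.80, Myc fell by 1.46 and Ccnd2, with a log2 fold change of 0.11, was not called by edgeR. In Null, 2 of the 3 rose with scaling by library size alone, under which 50.3% of all genes rose. The 3 repressed FOXO targets thus did not share a direction in either comparison.

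Outside the FOXO class, the table held 40 other forkhead genes, of which 27 were tested. Etoposide raised 8 and lowered 14 in Null (median −0.45), and raised 6 and lowered 15 in DKO (median −0.48), against 41.7% higher and 36.8% lower over all genes in Null and 44% and 31.3% in DKO. When only genes averaging 1 CPM or more were tested, 4 rose and 12 fell in Null, and 3 and 13 in DKO. With no filter, 12 rose and 14 fell in Null, and 8 and 16 in DKO. The shares of all genes given here are those of the main filter, so they are no background for these counts. The Null falls were led by Foxc2, Foxp1 and Foxc1, at −1.74, −1.73 and −1.54, and Foxj2 rose by 0.50. Like Foxo1, Foxj2, Foxn3 and Foxc2 were highest in untreated DKO, with averages of 56.7, 38.5 and 85.9 CPM there against 24.9, 18.9 and 36.7 CPM in untreated Null. Foxf1, Foxp1 and Foxn2 were also highest there, at 138, 306 and 186 CPM against 47.5, 174 and 178 CPM in untreated Null. Foxd1 went the other way, with 47.8 CPM in untreated Null against 2.79 CPM in untreated DKO and an interaction of 2.13.

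For each FOXO gene, the genes with the most similar pattern were those with the smallest root-mean-square (RMS) difference of log2 CPM over the 12 libraries, each gene centered on its own mean. Nearest to Foxo1, whose own spread on that scale was 0.98, were Ptgs2, Ppap2b, Rhobtb1 and Flrt2, with RMS differences of 0.19, 0.19, 0.22 and 0.23. Ptgs2, which encodes the inducible cyclooxygenase, averaged 521, 340.0, 2300.1 and 439 CPM in untreated Null, treated Null, untreated DKO and treated DKO. Nearest to Foxo3 were Nadk, 2310067B10Rik, Blcap and Ptk7, with RMS differences of 0.07, 0.08, 0.09 and 0.09 against an own spread of 0.37. Nearest to Foxo4 were Tollip, Eif1ax, Ocrl and Ssr4, with 0.04, 0.05, 0.07 and 0.07 against 0.38. Nearest to Foxo6 were Neurl1a, Smpdl3b, Ccnd1 and Ndrg4, with 0.22, 0.29, 0.34 and 0.36 against 1.31. No gene appeared for more than 1 FOXO member, and Ccnd1, nearest to Foxo6, was also on the list of repressed targets. In a check chosen after seeing the data, each of the 12 libraries was left out in turn and the 4 nearest genes were found again. For Foxo1, 2 to 4 of them were shared with the genes named here, with 2 shared without untreated DKO replicate 1. For Foxo3, 1 to 3 were shared, with 1 shared without untreated Null replicate 3 and 2 without untreated DKO replicate 1. For Foxo4, 2 to 4 were shared, with 2 shared without untreated Null replicate 1 or 2, untreated DKO replicate 1, 2 or 3, or Null etoposide replicate 1. For Foxo6, 2 to 4 were shared, with 2 shared without DKO etoposide replicate 3.

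Promoter windows of 300 bases, from 250 bases before to 50 bases after the start, were held for 2 of the 4 FOXO genes in a RefSeq table of GRCm38.p6, Foxo1 at chr3:52268087-52268386 on the + strand and Foxo3 at chr10:42276646-42276945 on the − strand. The letters CACGTG, the core that TFEB and TFE3 are known to bind, and the longer TCACGTG and TCATGTG, of which the first contains that core, were searched on both strands, together with the FOXO-type letters GTAAACA and the p53 half-site consensus. Neither window held any of them. Over all 32851 promoters, 7.15% held CACGTG, 3.77% TCACGTG, 3.77% TCATGTG, 3.65% GTAAACA and 8.36% a p53 half-site. The 250 bases before the start held 20 CG dinucleotides in Foxo1 and 31 in Foxo3, against a median of 6 over all promoters. These letters are absent only from these windows.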

How the data were processed

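RNA was sequenced from 12 MEF libraries, 3 in each of 4 groups taken from the sample labels. The deposited values are raw counts per gene that the authors made from HISAT2 alignments; the study's methods name HTSeq with GENCODE annotation for counting, whereas the submitters' processing notes name featureCounts and the build mm10. The 5 summary lines that name no gene were left out, and genes took from 53.4% to 63.1% of each library's total. Counts were fitted with edgeR 4.0.16 (R 4.3.3; filterByExpr, TMM scaling, quasi-likelihood F test, Benjamini-Hochberg adjustment over 15220 genes) in a model of all 12 libraries, and a gene was called at an adjusted p under 0.05. The edgeR fit was tested on simulated data. Alternatives were DESeq2 1.42.0, limma-trend (limma 3.58.1), other scalings and filters, a replicate block, and leaving out libraries or groups. Intervals are 1.96 SE on each side. CPM used TMM-scaled library sizes; log2 CPM used a prior count of 2. Gene positions and lengths came from GENCODE M21; 23350 of 24421 symbols matched directly and 677 through a synonym.

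Named genes were the 4 members, Tfeb, Tfe3, and, for each of the 4 lists and the other forkhead genes, the 3 largest rises and 3 largest falls among called genes averaging at least 10 CPM in 3 comparisons (etoposide in Null, genotype after etoposide, interaction), and the 4 nearest patterns per member; the threshold of 1 CPM in the plot of targets was set after the values were seen. In the 4 comparisons between groups, medians of whole lists did not move with genes at 0 in a group set at a floor of 3 counts over the group. Markers and genes left untested were named as lists, of which some genes are not reported here. Members and lists were chosen with earlier results of these data known.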

Additional observations from a re-analysis of the deposited data

Results flagged for a closer look

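The etoposide response differed between DKO and Null by the interaction test for several genes, given here as the log2 response in DKO minus that in Null. The largest adjusted p among them was 0.0413, for Foxo6 (Benjamini-Hochberg adjusted, quasi-likelihood test of edgeR). For the FOXO genes the difference was −2.06 for Foxo1, −0.66 for Foxo3 and −0.81 for Foxo6, whose call was lost under 10 of 19 alternatives, at −0.47 without DKO untreated replicate 2. For the targeted genes it was 0.49 for Tfeb and 0.28 for Tfe3, and the call of Tfeb was lost without DKO etoposide replicate 3, at 0.33.

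Among genes of FOXO kinase input it was 0.76 for Rictor, 0.68 for Akt2, 0.60 for Insr, −1.03 for Sgk1, −0.99 for Irs1 and −0.85 for Sgk3. Among FOXO modifiers it was 0.70 for Crebbp, 0.67 for Btrc, 0.65 for Ep300, −2.27 for Trib2, −1.66 for Prkaa2 and −1.48 for Mdm2. Among activated FOXO targets it was 0.80 for Gabarapl1, −3.17 for Pmaip1, −1.70 for Txnip and −1.59 for Ulk1. Rictor and Insr, given with the kinase input, are also on the list of activated targets, so counts of these lists are not separate. Among repressed FOXO targets it was 1.27 for Ccnd2 and −0.67 for Myc. Among other forkhead genes it was 2.13 for Foxd1, 0.53 for Foxj3, 0.37 for Foxn2, −1.20 for Foxj2, −0.94 for Foxn3 and −0.65 for Foxc2.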

How the results depend on the processing

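Of 300 values of the 20 FOXO log2 fold changes under the alternatives, 264 kept their direction and their side of the threshold, and so did 148 of 150 for Tfeb and Tfe3 and all 1156 for other named genes. The calls for etoposide in Null of Foxo1, Foxo3 and Foxo6 and in DKO of Foxo1, for DKO against Null of all 4 FOXO genes without etoposide and of Foxo3, Foxo4 and Foxo6 with it, and for the interaction of Foxo1 and Foxo3 held under every alternative run. The cause of the changes below was not tested.

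For etoposide in Null, Foxo4 was −0.11 with DESeq2, −0.10 with DESeq2 size factors in edgeR, −0.0642 with the stricter filter and 0.0176 with library size alone, all not called, and from −0.20 to −0.10 with 1 library left out. For etoposide in DKO, Foxo3 and Foxo4 stood near 0 and changed sign: Foxo3 was 0.0313 with the stricter filter and from −0.0639 to 0.0144 with 1 library left out, and Foxo4 was −0.0044 with DESeq2, −0.004 with DESeq2 size factors in edgeR, −0.026 with no filter, −0.0162 with the libraries of both DKO groups alone and from −0.027 to 0.0157 with 1 left out. With library size alone Foxo3, Foxo4 and Foxo6 were called in DKO, at 0.27, 0.29 and 0.83. Foxo6 there was also called with limma-trend, at 0.61, and with the stricter filter, at 0.58, and ran from 0.32 to 0.88 with 1 left out. The Foxo6 interaction was not called with limma-trend, at −0.75, or library size alone, at −0.71, and ran from −1.05 to −0.47 with 1 left out. The Foxo4 interaction was called with library size alone, at 0.27, and ran from 0.11 to 0.21 with 1 left out. DKO against Null after etoposide then ran from −0.10 to −0.009 for Foxo1 and from −0.0537 to 0.0331 for Tfe3, and the Tfeb interaction from 0.33 to 0.63, with its call lost at 0.33, without DKO etoposide replicate 3.

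The summed FOXO level per length moved to 18.8 and 17.6 CPM per kb in treated Null and DKO with DESeq2 size factors. It moved to 15.6, 19.9, 29.3 and 19.2 in Null and then DKO, each untreated then treated, with library size alone, and to 17.2, 19.6, 34.4 and 19.4 with the longest transcript as length. Nearest patterns with 1 library left out, chosen after seeing the data, shared 1 to 3 of 4 genes for Foxo3 and 2 to 4 for the others.

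With library size alone the split of higher against lower calls was 7654 to 4351 (reported 6342 to 5598) for etoposide in Null, 9349 to 2975 (6702 to 4757) in DKO, 3997 to 6473 (5080 to 5183) for untreated DKO against Null, and 5783 to 3110 (4553 to 3757) for the interaction. With DESeq2 size factors the balance turned to 3862 to 4236 for the interaction. For DKO against Null after etoposide it turned from 5612 to 5351 into 4991 to 5866 with these factors, and into 5452 to 5477 with library size alone. Library size alone also moved higher counts from 5 to 8 among modifiers and from 1 to 2 among repressed targets for etoposide in Null. In DKO it moved higher counts from 4 to 8 among kinase input genes and from 7 to 15 among modifiers, and lower counts from 21 to 12 among modifiers and from 15 to 9 among activated targets. For untreated DKO against Null it moved lower modifiers from 10 to 16. Higher repressed targets went from 1 to 0 there, and also without untreated Null replicate 3 or untreated DKO replicate 2. With the stricter filter, which tests fewer genes, other forkhead genes went from 8 to 4 higher for etoposide in Null, from 6 to 3 higher in DKO, and from 7 to 3 lower for DKO against Null in either treatment state.

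Replicate numbers showed no clear pairing of the libraries. Deviations from the group mean of the 18 same-numbered pairs correlated from −0.03 to 0.04 (median 0.01). Those of the 36 differently numbered pairs correlated from −0.05 to 0.05 (median −0.01). With the replicate block the counts of calls were 11873, 11374, 10206, 10886 and 8196 in the order of the comparisons, against 11940, 11459, 10263, 10963 and 8310, and the block changed no call of a FOXO gene.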
